A study of Homo sapiens with 4 samples.

Results

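The clustered protocadherin genes on the long arm of chromosome 5 were followed through S phase in single cells of DKO1 and of its parent HCT116, a human colorectal cancer cell line. Their bins were those of the deposited 80 kb table, in hg19 coordinates, that overlap the range of the 3 gene clusters. They are 11 bins of 27704, from 140080001 to 140960000 (880 kb), all of which passed the filter on calls. Of these, 3 bins overlap the alpha cluster, 3 the beta cluster and 4 the gamma cluster, and 1 edge bin lies just before alpha. The 23 bins on the centromeric side and the 25 on the telomeric side, 2 Mb each, gave the setting. The members were chosen by position, and the values below are descriptions.

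DKO1 carries knockouts of DNMT1, which copies methylation onto new DNA strands, and of DNMT3B, which adds it to unmethylated sites, per the labels. It is a clonal derivative and is known to keep some activity of a shortened DNMT1. Both lines were grown in the same serum-supplemented medium, live cells were sorted by DNA content, and sorted fractions from across S phase were pooled in equal numbers for a droplet copy-number assay. The table held 207 DKO1 cells and 322 HCT116 cells from 1 S-phase library per line, with no cell barcode of the 529 shared between the libraries. No test between the lines is possible, and no p-value is given. Each bin and cell carried a state code from a hidden Markov model, in which code 2 was read as replicated, code 1 as unreplicated and code 0 as not called. Code 2 was more frequent on gene-dense chromosomes (Spearman's rho across 21 chromosomes 0.88 in DKO1 and 0.83 in HCT116), and such chromosomes replicate early. A call does not separate the 2 chromosome copies of a cell, and the read depth behind it is unknown. How far a cell had come in S phase, its progress, was taken as the replicated percent of its called bins. Its median was 48.8% in DKO1 and 52.7% in HCT116.

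Protocadherins are cadherin-like adhesion proteins of the cell surface. In neurons each cell expresses its own small selection of the clustered isoforms, which bind only like isoforms on other cells and so let a neuron tell its own branches from those of its neighbours. Each alpha and gamma gene starts with its own variable exon and promoter and is spliced to constant exons shared by its cluster, while each beta gene is a single exon. The insulator protein CTCF binds most of the promoters, this binding is blocked by DNA methylation, and in mouse Dnmt3b sets the methylation of these promoters early in development. In colorectal and other cancers promoters of the clusters are methylated over long stretches. Replication timing is the order in which parts of the genome are copied in S phase: open, gene-dense chromatin is usually copied early and silent chromatin late.

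The RefSeq annotation lists 15 alpha, 16 beta and 22 gamma protein-coding genes in this order. Between beta and gamma lie SLC25A2, a mitochondrial ornithine carrier, and TAF7, a subunit of the general transcription factor TFIID. The nearest neighbours are ZMAT2, HARS2 and HARS1 (the last 2 are histidyl-tRNA synthetases) on the centromeric side and DIAPH1, an actin-nucleating formin, and HDAC3, a histone deacetylase, on the telomeric side. That annotation is of another build (GRCh38.p14), so it was used for names and order only, and single genes were not placed in bins.

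The promoters of the clusters share a short element, the CGCT box, which contains a CG dinucleotide and thus a possible methylation site. It is shown here because the compared lines differ in the enzymes that methylate such sites. Methylation itself was not measured in these libraries. RefSeq promoter windows (250 bases before to 50 after the gene start, GRCh38.p14) were found for 47 of the 53 genes, with 52 windows. The letters CGCT occurred on the gene's strand in 51 of these 52 windows (98.1%), in 12 of 13 for alpha, 14 of 14 for beta and 25 of 25 for gamma, against 54.3% of all 35116 windows in the table. Counting either strand (CGCT or AGCG), it was 98.1%, against 70.01% of all windows. The windows are not rich in CG: the median was 7.5 CG dinucleotides per window (range 2 to 27), against 14 over all windows. The first 3 promoters of each cluster, in chromosome order, that held a single CGCT are given below as 30 bases around it on the plus strand, with CGCT in capitals.
PCDHA1: acattggccacatgatgtCGCTgtacacca
PCDHA2: cttttagccacatgatgtCGCTgtccacca
PCDHA4: tttggagccacatgatgtCGCTctttacca
PCDHB7: ccacaaaacgcaaggtggCGCTgctggcta
PCDHB16: agtgagaacgcgtggtggCGCTgcaggtta
PCDHB9: ttggaagccacaaggtggCGCTgcagactg
PCDHGA1: ggttaggactgtgggcgcCGCTgttcacta
PCDHGA2: atttaggcctctgagcgtCGCTgttgacca
PCDHGA3: ggttaggcctcttagtgtCGCTgttgacca
The alpha example PCDHA1 lies at chr5:140786084-140786113, the beta example PCDHB7 at chr5:141172564-141172593 and the gamma example PCDHGA1 at chr5:141330401-141330430 (all GRCh38.p14, plus strand). The C of the box lies 38 bases before the gene start in PCDHA1, 62 in PCDHB7 and 95 in PCDHGA1. A match of 4 letters is a description of the window and not a mapped binding site.

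The protocadherin clusters formed a late-replicating trough inside an early-replicating stretch in both lines, and the trough was shallower in DKO1. The comparison used the standardised share of a bin, which is the replicated percent of the cells, averaged with equal weight over 6 strata of progress of 10 points each from 20 to 80%, so that the lines are set side by side at like progress. Over the 11 bins the mean standardised share was 69.7% in DKO1 and 57.6% in HCT116, a difference of 12.1 points. The beta bins, at the floor of the trough, had 62.0% in DKO1 and 41.8% in HCT116, a difference of 20.2 points. The alpha bins differed by 10.4 points (74.95% in DKO1 and 64.5% in HCT116) and the gamma bins by 10.8 points (67.4% in DKO1 and 56.7% in HCT116).

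**Figure D1:**
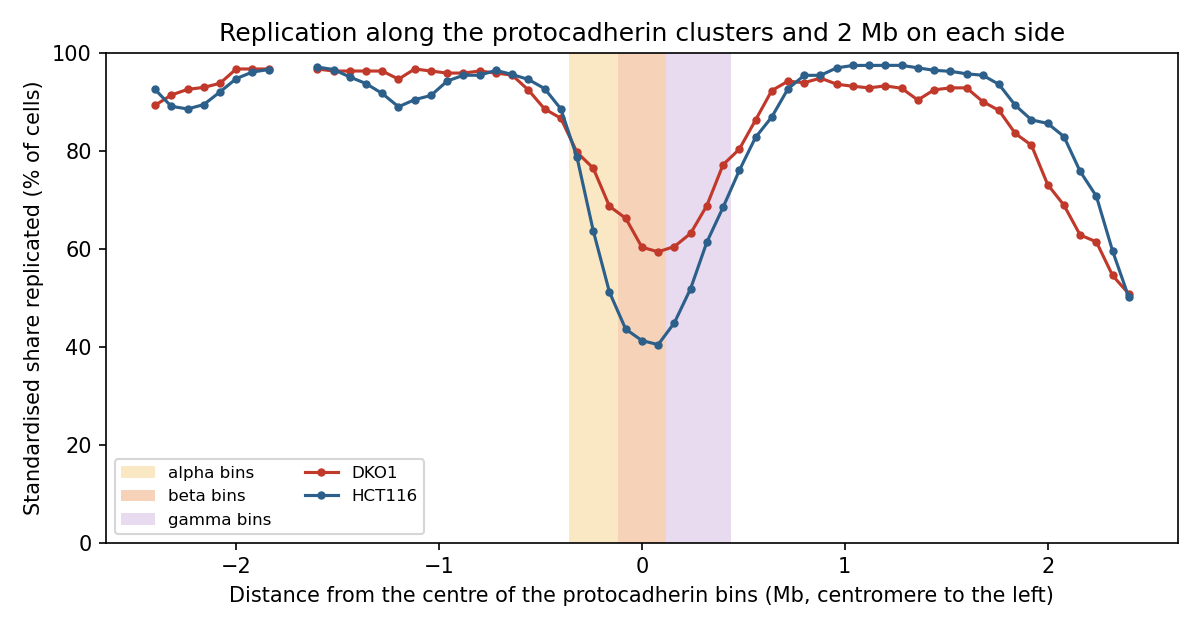
Standardised share of cells replicated (percent, y axis) for each 80 kb bin against its distance in Mb from the centre of the 11 protocadherin bins, in DKO1 (red) and HCT116 (blue). Shading marks the alpha, beta and gamma bins, and the break in the lines marks bins that the table does not hold. Both curves dip over the clusters, to 59.4% in DKO1 and 40.4% in HCT116.

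Followed from the centromeric side, the lines lay close together at the start of the alpha cluster and then parted. In the edge bin before alpha (140080001 to 140160000) the share was 86.7% in DKO1 and 88.6% in HCT116. In the first alpha bin (140160001 to 140240000) it was 79.7% in DKO1 and 78.7% in HCT116. In these 2 bins the lines differed by under 2 points, and DKO1 was the lower one in the edge bin. In the second alpha bin, from 140240001, the share was 76.5% in DKO1 and 63.7% in HCT116. In the third, from 140320001 to 140400000, which holds the end of the alpha cluster, it was 68.7% in DKO1 and 51.1% in HCT116. Across the 3 alpha bins the share dropped by less in DKO1, from one bin to the next, than in HCT116.

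By the mean of its bins, the beta cluster was the last of the 3 to replicate in both lines. Its first bin (140400001 to 140480000) had 66.3% in DKO1 and 43.6% in HCT116, and this difference of 22.6 points was the largest of the 11 bins. The second bin, from 140480001, had 60.3% in DKO1 and 41.3% in HCT116. The third, from 140560001 to 140640000, was the lowest of the trough in both lines, with 59.4% in DKO1 and 40.4% in HCT116. In the beta bins most HCT116 cells in these strata, weighted equally, were thus unreplicated and most DKO1 cells replicated.

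Through the gamma cluster the lines approached each other again. The bin from 140640001 to 140720000, which overlaps the range of gamma by only 10 kb, had 60.5% in DKO1 and 44.9% in HCT116. The next bins had 63.2% in DKO1 and 51.9% in HCT116 (from 140720001), and 68.8% in DKO1 and 61.4% in HCT116 (from 140800001). The last bin, from 140880001 to 140960000, overlaps gamma by 10 kb as well and had 77.2% in DKO1 and 68.5% in HCT116. All 4 gamma bins were higher in DKO1, by 7.47 to 15.6 points. In DKO1 the first and second gamma bins lay below the first beta bin (66.3%), so beta and gamma bins were not fully separate there.

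Plain counts of cells, not matched in progress, also put the floor of the trough in the beta bins. In the first beta bin 133 of 204 called DKO1 cells were replicated (65.2%, exact Clopper-Pearson 95% interval 58.2 to 71.7%) and 147 of 319 HCT116 cells (46.1%, 40.5 to 51.7%). In the third beta bin, from 140560001, 124 of 204 DKO1 cells (60.8%, 53.7 to 67.5%) and 134 of 319 HCT116 cells (42.0%, 36.5 to 47.6%) were replicated. In the first alpha bin the counts were 168 of 203 DKO1 cells (82.8%, 76.8 to 87.7%) and 261 of 320 HCT116 cells (81.6%, 76.9 to 85.7%). The intervals of the lines did not overlap in the beta bins and overlapped widely in the first alpha bin. All such intervals cover counting error of cells only, not variation between cultures.

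The depth of the trough was measured from the lower of its 2 shoulders, the highest bin of the centromeric flank and the highest bin of the first part of the telomeric flank. It was 35.5 points in DKO1, with shoulders of 96.7 and 94.9%, and 56.7 points in HCT116, with shoulders of 97.1 and 97.5%. The shoulders thus lay within 3 points of each other between the lines, and the floor differed by 19.0 points. From the lower of the outermost of the 11 bins the depth was 17.8 points in DKO1 and 28.1 points in HCT116.

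Differences of this size were uncommon in the table but not rare. Of the 11 bins, 5 were higher in DKO1 by at least 15 points, the limit of size used in place of a test, namely the third alpha bin, the 3 beta bins and the first gamma bin, and none was lower by as much. Of all 27142 used bins 6.9% were higher by at least 15 points and 7.39% lower by as much, and of the 1787 used bins of chromosome 5 5.2% were higher. The mean share of the lines in the 11 bins ran from 49.9 to 87.6%, and of the 8339 used bins in that range 4.44% passed the limit upward. Adjacent bins are called together by the model and are not independent, so the 5 bins are 1 stretch. Without matching of progress 3 of the 11 bins passed the limit, against 5.44% of all used bins. The median difference was 12.8 points over the 11 bins, 0.01 over all used bins and -4.99 over the 8339 bins of like share. In 10 of the 11 bins DKO1 was higher, against 50% of all used bins and 32.1% of those of like share. Chromosome 5 as a whole had a mean share of 42.3% in DKO1 and 44.1% in HCT116. The bins just inside the limit were the first gamma bin (15.6 points) and the third alpha bin (17.5), and those just outside it the second alpha bin (12.8) and the second gamma bin (11.3).

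**Figure D2:**
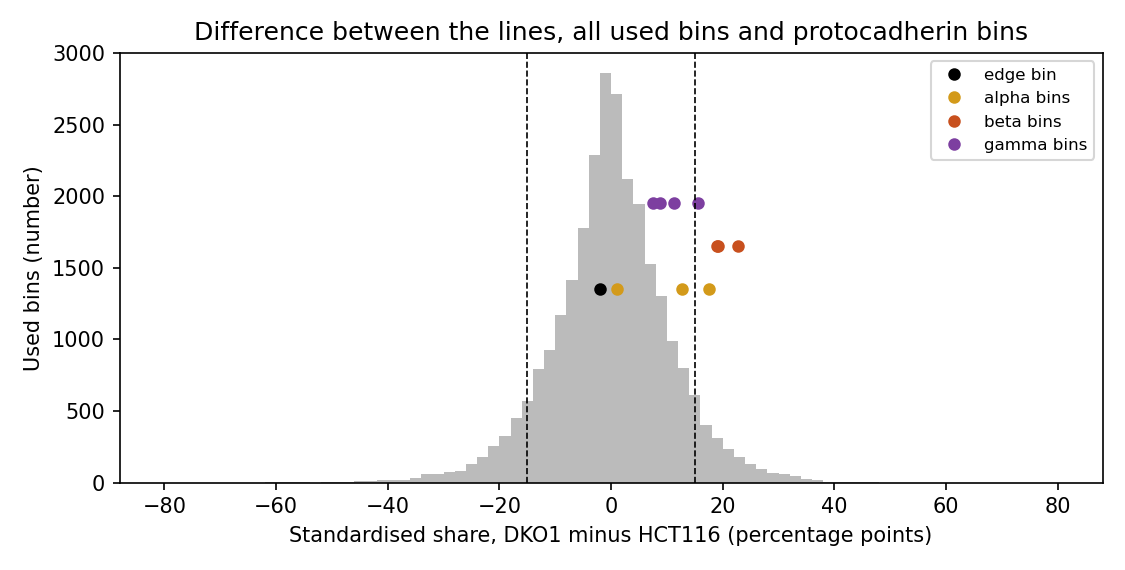
Number of used bins (y axis) by the difference in standardised share, DKO1 minus HCT116, in percentage points (x axis, grey bars of 2 points). Points mark the 11 protocadherin bins at heights chosen for legibility, and dashed lines mark a difference of 15 points either way. The 3 beta bins lie at 19.0 to 22.6 points, and the edge bin at -1.93.

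The stretches on both sides showed no such rise, but many of their bins had little room for one. The 23 bins of the centromeric flank had a mean share of 94.8% in DKO1 and 93.4% in HCT116, a difference of 1.37 points. None passed 15 points, but the HCT116 share there was 88.6 to 97.1%, so a rise of that size was not possible. The largest difference there was 6.26 points, in the bin from 139360001 to 139440000 (96.7% in DKO1 and 90.5% in HCT116). The 25 bins of the telomeric flank had 83.6% in DKO1 and 87.6% in HCT116, a difference of -3.99 points, with DKO1 higher in 5 of them. The HCT116 share in this flank ran from 50.1 to 97.5%, so only some bins had room for a rise of 15 points. The highest difference, DKO1 minus HCT116, in this flank was 5.40 points. The lowest, -14.0 points and the largest in size, was in the bin from 142560001 to 142640000. That bin had 68.9% in DKO1 and 82.9% in HCT116. There the share was dropping toward a later stretch, and in the last bin of the window both lines were at a like level (50.8% in DKO1 and 50.1% in HCT116). In this window DKO1 was thus higher at the protocadherin trough and lower on the telomeric slope.

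Set out by progress, the lead of DKO1 at the beta cluster lay in early and mid S phase. A cluster was counted as replicated in a cell when more than 50% of its called bins were, and ties, as in cells with an equal split of the 4 gamma bins, were left out. At 20 to 30% progress beta was replicated in 3 of 11 DKO1 cells (27.3%, 6.02 to 60.97%) and 0 of 33 HCT116 cells, which allows a share of up to 9.09%. At 30 to 40% it was replicated in 10 of 41 DKO1 cells (24.4%, 12.4 to 40.3%) and 3 of 48 HCT116 cells (6.25%, 1.31 to 17.2%). At 40 to 50% it was replicated in 26 of 52 DKO1 cells (50%, 35.8 to 64.2%) and 7 of 59 HCT116 cells (11.9%, 4.91 to 22.9%), the widest gap of the 6 strata at 38.1 points. At 50 to 60% it was replicated in 39 of 50 DKO1 cells (78%, 64.04 to 88.5%) and 40 of 78 HCT116 cells (51.3%, 39.7 to 62.8%). From 60% on the lines lay close together. At 60 to 70% the counts were 36 of 39 DKO1 cells (92.3%) and 72 of 81 HCT116 cells (88.9%), and at 70 to 80% 9 of 10 DKO1 cells and 16 of 18 HCT116 cells. Within a stratum the mean progress was not quite equal. It was 27.1% in DKO1 and 26.1% in HCT116 at 20 to 30%, and 36.3% in DKO1 and 34.8% in HCT116 at 30 to 40%. At higher progress it ran the other way, with 44.3% in DKO1 and 45.4% in HCT116 at 40 to 50%, and 54.2% in DKO1 and 55.1% in HCT116 at 50 to 60%.

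**Figure D3:**
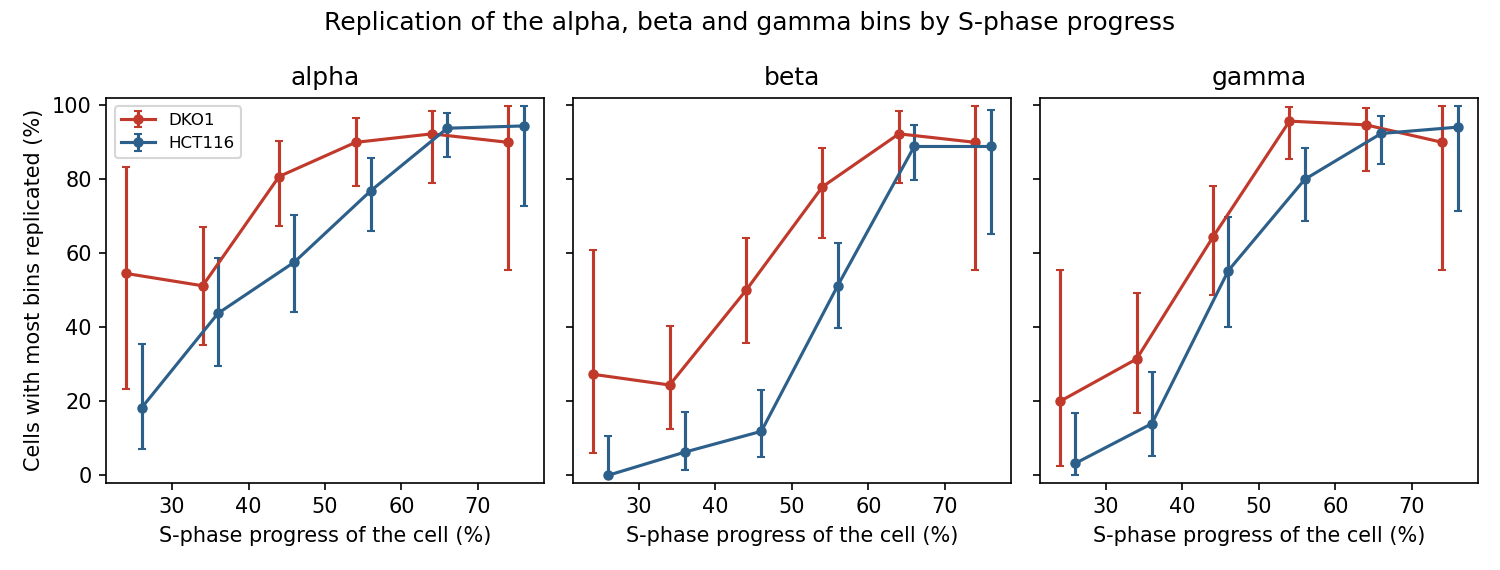
Percent of cells in which most bins of the alpha, beta or gamma cluster were replicated (y axis) by stratum of S-phase progress in percent (x axis, points set 1 point apart for legibility), in DKO1 (red) and HCT116 (blue). Bars are exact 95% intervals for counts of cells. In the beta panel at 40 to 50% progress DKO1 stands at 50% and HCT116 at 11.9%.

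The alpha and gamma clusters showed smaller gaps at 40 to 60% progress. At 20 to 30% alpha was replicated in 6 of 11 DKO1 cells (54.5%, 23.4 to 83.3%) and 6 of 33 HCT116 cells (18.2%, 6.98 to 35.5%), a wider gap than that of beta but on few cells. At 30 to 40% the gap was 7.47 points for alpha and 17.5 points for gamma, against 18.1 points for beta. At 40 to 50% progress alpha was replicated in 42 of 52 DKO1 cells (80.8%, 67.5 to 90.4%) and 34 of 59 HCT116 cells (57.6%, 44.1 to 70.4%). Gamma was replicated in 29 of 45 DKO1 cells (64.4%, 48.8 to 78.1%) and 26 of 47 HCT116 cells (55.3%, 40.1 to 69.8%). At 50 to 60% gamma was replicated in 45 of 47 DKO1 cells (95.7%, 85.5 to 99.5%) and 56 of 70 HCT116 cells (80%, 68.7 to 88.6%). The intervals of the lines overlap in each of these comparisons of alpha and of gamma. At 60 to 70% the lines were within 4 points of each other in all 3 clusters, with alpha slightly lower in DKO1 (92.3%) than in HCT116 (93.8%).

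**Figure D4:**
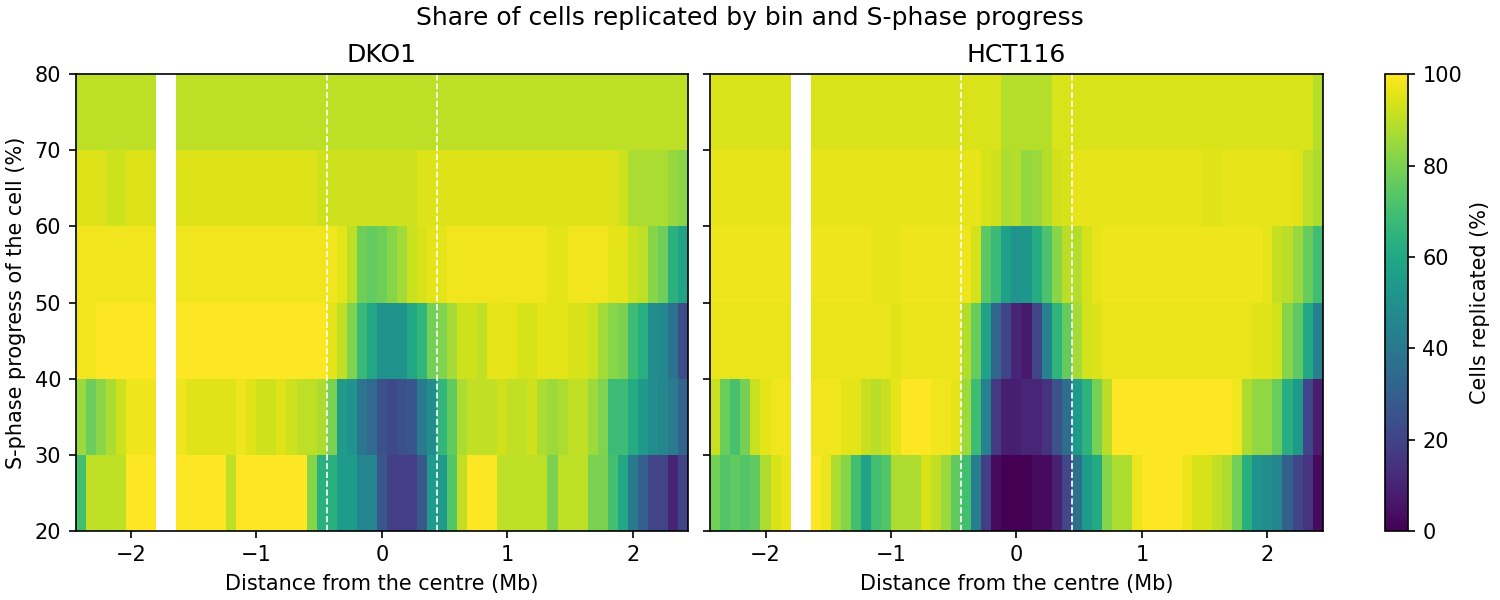
Percent of cells replicated (colour) for each bin, by distance in Mb from the centre of the protocadherin bins (x axis) and by S-phase progress in percent (y axis), for DKO1 (left) and HCT116 (right). Dashed lines enclose the 11 protocadherin bins and white columns are bins that the table does not hold. The dark wedge over the clusters lasts to 50% progress in HCT116 and is lighter at the same progress in DKO1.

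A logistic curve of state against progress, with progress taken from the other chromosomes, gave the progress at which the clusters were replicated in 50% of the calls. For the beta bins this was 43.7% in DKO1 and 54.9% in HCT116, 11.1 points earlier in DKO1. For alpha it was 33.3% in DKO1 and 40.7% in HCT116, and for gamma 40.1% in DKO1 and 45.7% in HCT116. Taken by cluster, the order alpha, gamma, beta was the same in both lines. Bin by bin the shift in DKO1 was largest in the first beta bin (41.1% in DKO1 and 53.8% in HCT116) and near 0 in the first alpha bin (29.2% in DKO1 and 28.4% in HCT116). The width of the curve, the progress between 25 and 75% replicated, was 19.1 points in DKO1 and 13.4 points in HCT116 for beta. That difference of 5.61 points in width was 1.74 without the cells whose chromosome 5 departed by more than 15 points from the other chromosomes (10 DKO1 and 7 HCT116 cells), and -2.06 with only the cells that had calls in at least 99% of bins, so no order of the widths is given. The difference in the progress at 50% was -10.5 points without the cells with an outlying chromosome 5 and -10.7 points with only those well-called cells.

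Single cells showed the trough as an unreplicated gap between replicated sides. Among cells in which the stretches on both sides were replicated (most of 6 bins on the centromeric side next to the clusters, and of 6 bins on the telomeric side beyond the first 3), beta was still unreplicated in 69 of 188 DKO1 cells (36.7%, 29.8 to 44.02%) and 166 of 303 HCT116 cells (54.8%, 48.99 to 60.5%). At 40 to 50% progress such a gap was present in 25 of 49 DKO1 cells (51.02%, 36.3 to 65.6%) and 50 of 57 HCT116 cells (87.7%, 76.3 to 94.9%). At 20 to 30% it was present in 7 of 9 DKO1 cells and in 28 of 28 HCT116 cells. At 50 to 60% it was present in 11 of 50 DKO1 cells (22%, 11.5 to 36.0%) and 36 of 75 HCT116 cells (48%, 36.3 to 59.8%). At 60 to 70% it remained in 1 of 37 DKO1 cells (2.70%, 0.0684 to 14.2%) and 6 of 78 HCT116 cells (7.69%, 2.88 to 16.0%), with overlapping intervals. The sides themselves were both replicated in 188 of 198 DKO1 cells (94.9%) and 303 of 313 HCT116 cells (96.8%). Beta was replicated with neither side replicated in 0 of 5 DKO1 cells and 0 of 7 HCT116 cells, too few to set a useful limit.

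Where a gap was present, its median length was the same in both lines. In 77 DKO1 and 174 HCT116 cells the unreplicated run across the middle beta bin ended within the window on both sides. Its median length was 640 kb in both lines, with quartiles of 400 and 880 kb in DKO1 and 400 and 800 kb in HCT116. In cells at 40 to 60% progress the median was 480 kb in both lines (37 DKO1 and 88 HCT116 cells, quartiles 320 and 640 kb in each). The median run in such mid-S cells went from 140320001 to 140800000, from the end of alpha into gamma. It lay wholly inside the 11 bins in 31 of 37 DKO1 cells (83.8%, 67.99 to 93.8%) and 78 of 88 HCT116 cells (88.6%, 80.1 to 94.4%). The lines thus differed in how many cells had a gap, while its median length was the same to the resolution of 1 bin. Among these runs the longest was 2400 kb in DKO1 and 1600 kb in HCT116 over all cells. At 40 to 60% progress it was 1600 kb in DKO1 and 880 kb in HCT116. Runs that did not end in a replicated bin of the window on both sides have no length here. They were present in 4 DKO1 and 7 HCT116 cells, of which 0 DKO1 and 3 HCT116 cells were at 40 to 60% progress. Which line had the longest runs is therefore not known.

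A part-copied stretch was common in both lines and was seen in fewer DKO1 cells. Over all cells with 11 called bins, some but not all of the bins were replicated in 77 of 202 DKO1 cells (38.1%, 31.4 to 45.2%) and 179 of 318 HCT116 cells (56.3%, 50.6 to 61.8%). All 11 bins were replicated in 110 DKO1 cells (54.5%, 47.3 to 61.5%) and 119 HCT116 cells (37.4%, 32.1 to 43.0%). None was replicated in 15 DKO1 cells (7.43%, 4.22 to 11.95%) and 20 HCT116 cells (6.29%, 3.88 to 9.55%). At 40 to 50% progress a split was present in 32 of 51 DKO1 cells (62.7%, 48.1 to 75.9%) and 53 of 58 HCT116 cells (91.4%, 81.02 to 97.1%), while 18 DKO1 cells (35.3%) and 3 HCT116 cells (5.17%) had all bins replicated. The difference in this stratum lay in cells with complete clusters, since only 1 DKO1 and 2 HCT116 cells had none replicated.

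**Figure D5:**
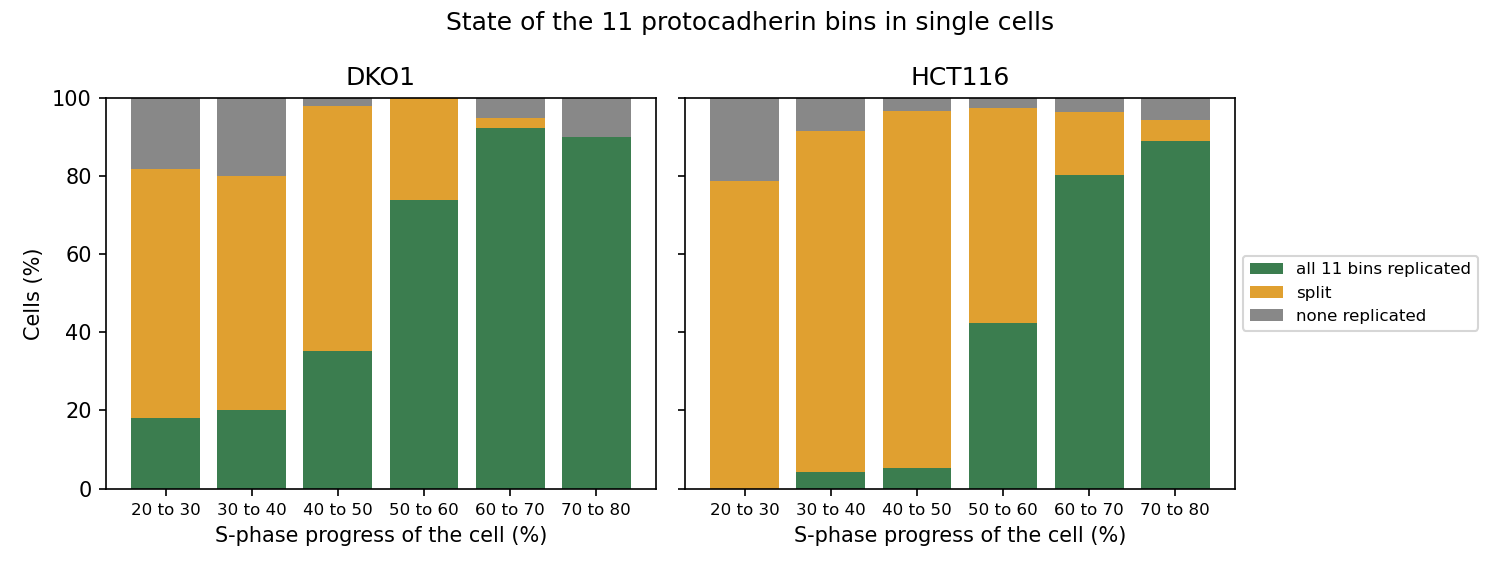
Percent of cells (y axis) by S-phase progress in percent (x axis) in which all 11 protocadherin bins (green), some of them (orange) or none (grey) were replicated, in DKO1 (left) and HCT116 (right). At 40 to 50% progress all bins were replicated in 35.3% of DKO1 cells and 5.17% of HCT116 cells.

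In split clusters the outer bins were the replicated ones in both lines. Both outermost bins were replicated and an inner stretch was not in 46 of 77 split DKO1 cells (59.7%, 47.9 to 70.8%) and 103 of 179 split HCT116 cells (57.5%, 49.9 to 64.9%). Only the alpha-side edge was replicated in 27 DKO1 cells (35.1%) and 65 HCT116 cells (36.3%), and only the gamma-side edge in 4 DKO1 cells (5.19%) and 11 HCT116 cells (6.15%). The opposite pattern, an inner stretch replicated with both outermost bins unreplicated, occurred in 0 of 77 DKO1 cells and 0 of 179 HCT116 cells, which allow shares of up to 3.90 and 1.68%. When alpha and beta differed, alpha was the replicated one in 28 of 28 DKO1 cells and 63 of 65 HCT116 cells. When gamma and beta differed, gamma was the replicated one in 19 of 25 DKO1 cells (76%, 54.9 to 90.6%) and 47 of 51 HCT116 cells (92.2%, 81.1 to 97.8%). These intervals overlap, and whether the order of beta and gamma differed between the lines was not tested.

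Code 0 touched the clusters in few cells. At least 1 of the 11 bins was not called in 5 of 207 DKO1 cells (2.42%, 0.789 to 5.55%) and 4 of 322 HCT116 cells (1.24%, 0.339 to 3.15%). Over the whole table code 0 took 2.80% of calls in DKO1 and 1.08% in HCT116. With only the cells that had calls in at least 99% of bins (60 DKO1 and 187 HCT116 cells in 4 usable strata), the beta bins had 64.9% in DKO1 and 40.7% in HCT116, a difference of 24.1 points.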

How the data were processed

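The authors deposited 1 table of state codes, 1 code (0, 1 or 2) per bin of 80 kb and cell, with no other unit. Columns are single cells of DKO1 or HCT116, per the file headers, and the codes are binarised hidden Markov model calls, per the table's name. Cell Ranger, SAMtools 1.10, bedtools 2.26.0 and the build hg19 (GRCh37) are named in the submitters' processing notes. The sources used here do not give the model's settings or the reads per cell. The G1 libraries were not analysed here.

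A bin was used when 90% or more of each line's cells had a call in it (27142 bins). Strata needed at least 5 cells of each line, which left 206 DKO1 and 320 HCT116 cells in 6 strata. A bin overlapping a cluster was given to it. Logistic curves were fitted by maximum likelihood over all calls of the bins concerned, and intervals are exact binomial at 95%. The largest share a count of 0 allows was set at 3 counts. No doublet caller was run on these codes, and whether doublets were removed before deposit was not stated in the labels. The functions were tested on simulated data. Python 3.11.15, NumPy 2.4.6, pandas 2.3.3 and SciPy 1.17.1 were used. The genes named are all members by symbol, with neighbours from the 10 nearest on each side. The flank bins named are those of highest and lowest difference, DKO1 minus HCT116. The members, parts and measures were chosen with earlier results of these data known. Alternatives varied the matching, strata, range of progress, code 0, cells, bins and limit.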

Additional observations from a re-analysis of the deposited data

How the results depend on the processing

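The differences in standardised share kept their direction under every alternative run: 10.5 to 13.5 points over the 11 bins, 8.17 to 10.8 for alpha, 18.3 to 24.1 for beta, 9.26 to 12.95 for gamma, 0.285 to 1.93 for the centromeric flank and -5.55 to -3.79 for the telomeric flank. The number of bins higher by at least 15 points was 5, against 6.90% of all used bins. It was 3 without matching of progress (5.44% of all used bins) and 4 with progress taken without chromosome 5 (6.48%). With a limit of 20 points it was 1, against 3.24% of all used bins past that limit. The difference in progress at 50% replicated stayed between -7.72 and -4.82 points for the 11 bins and between -11.7 and -10.1 for beta. The difference in split cells stayed between -19.1 and -17.3 points. Widths depended on the cells used. For the 11 bins the difference in width was -0.952 points, and -3.70 at 30 to 70% progress, -8.21 with only the cells that had calls in at least 99% of bins, and -5.08 without cells with an outlying chromosome 5. For beta it was 5.61 points, and under the same settings 2.31, -2.06 and 1.74 points. The cause was not tested. The settings without outlying cells, with gamma bins at least 50% covered, and all those of the beta curve were added after seeing the data. Bins called in at least 99% of cells gave no value, since 1 of the 11 passed. Matching and strata do not enter the curves or the split cells, and the curves already take progress from the other chromosomes. The extreme strata rest on 11 and 10 DKO1 cells. No paired analysis was possible because each line has 1 library.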

Other observations

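In a few HCT116 cells the clusters were cut more finely. The state switched more than 2 times across the 11 bins in 7 of 179 split HCT116 cells (3.91%, exact 95% interval 1.59 to 7.89%). It did so in 0 of 77 split DKO1 cells, which allows a share of up to 3.90%. A difference between the lines was not tested. Some cells far into S phase had none of the 11 bins replicated. At 60 to 70% progress these were 2 of 39 DKO1 cells and 3 of 81 HCT116 cells. At 70 to 80% they were 1 of 10 DKO1 cells and 1 of 18 HCT116 cells. The stretches on both sides, as defined for the gaps, were unreplicated in as many cells. These were 2 DKO1 and 3 HCT116 cells at 60 to 70%, and 1 cell of each line at 70 to 80%. Beta was replicated in none of them. The counts thus do not show a delay limited to the clusters.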
